A study of Mus musculus with 4 samples.

Results

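Long intergenic non-coding RNAs (lincRNAs) are transcripts made from their own genes between protein-coding genes. They are spliced and polyadenylated much like messenger RNAs, but hold no long conserved reading frame. Some build or fill nuclear bodies, some coat chromatin, some host microRNAs in their introns or exons and some bind cytoplasmic proteins. Their levels in these data come from RNA immunoprecipitation sequencing (RIP-seq), in which an antibody pulls a protein and the RNA held with it from a lysate and that RNA is sequenced. RUNX1 is a transcription factor that endothelial cells of the embryo need to give rise to blood cells, and the series addresses which RNAs are recovered with it at that stage.

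All 4 libraries came from CD31-positive cells sorted from the caudal portion of wild-type C57BL/6 mouse embryos at embryonic day 10.0, and they differ in the antibody used, which was raised against Runx1 for 2 of them and was non-specific IgG for the other 2. The number of embryos and cells behind a library is not given in the sources used here, nor is it stated that replicates came from separate sorts, so p-values measure no more than how far these libraries lie apart, and that may be technical. An input library was not analysed here. The lincRNAs described below were chosen by abundance: they are the genes that the GENCODE M21 annotation of mm10 types as lincRNA and whose raw counts sum to at least 100 over the 4 libraries, with H19, Meg3, Kcnq1ot1, Gas5 and Snhg1 left out. This rule took 100 genes, called members below, of 5849 lincRNAs in the table, of which 1049 had at least 1 count. All 100 members passed the low-count filter of the gene test, which kept 12401 of 55573 genes and 189 lincRNAs. The members held 70.2% of all lincRNA counts. The sum that chose them weighs the deeper IgG libraries more, which held 64.0% of all gene counts; a mean of at least 10 CPM, which weighs the libraries equally, took 100 lincRNAs, 98 of them the same.

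Gene counts were 1675488 and 1887301 in the Runx1 libraries and 3843318 and 2482045 in the IgG libraries, so the floor of 3 counts stands at 0.781 to 1.79 CPM (counts scaled to a common library size). These floors cover counting error only. Levels below are CPM scaled by TMM factors, which set the typical gene equal between libraries, so each fold change is relative to the typical gene. The share of counts in spike-in RNA, synthetic RNA added in a fixed amount, was higher with Runx1 (0.0356% and 0.0378%) than with IgG (0.0129% and 0.0175%), and scaling to it moves the median log2 fold change of all genes from 0.03 to -1.25. Every direction below is therefore relative, and under the spike-in scaling 0 members were called higher and 39 lower, beside 19 and 3914 of all genes. The sort marker Pecam1, which encodes CD31, was at 80.3 to 102 CPM in every library, and the endothelial receptor gene Kdr was at 661 to 883 CPM. Summed over 11 erythroid marker genes, the level was 863 and 895 CPM with Runx1 against 512 and 469 with IgG, and all 8 of those genes tested had a fold change above 1. The 10 neural markers summed to 686 and 587 CPM with Runx1 and 521 and 488 with IgG. Most of each sum was Nes, at 477 and 387 CPM with Runx1 and 306 and 315 with IgG. Of the 8 neural markers tested, 6 had a fold change above 1, while Elavl4 (log2 fold change -1.38) and Dcx (-1.08) went the other way. The 15 endothelial markers (1627 to 1961 CPM) overlapped between antibodies. The 14 blood progenitor and leukocyte markers (254 to 512 CPM) and the 9 epithelial markers (144 to 188 CPM) overlapped too, and the 10 mesenchymal markers were at 1426 and 1506 CPM with Runx1 and 1374 and 1274 with IgG; the part of these cells in the results below was not tested.

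Several members carry sequence elements that earlier work ties to a protein or a microRNA, and they are shown here because several results below concern the members that hold them. The gene 2900097C17Rik (chr2:156388065-156392979, minus strand, mm10, a single exon of 4915 bases) is listed in RefSeq as Norad, a cytoplasmic RNA known for binding PUMILIO proteins through a repeated element. Its sequence held 11 copies of TGTANATA on the transcribed strand, of which the first, a pair that nearly touch, and the last are printed with the element in capitals.
2900097C17Rik, chr2:156392316-156392335: gtcctgTGTATATAatatga
2900097C17Rik, chr2:156390525-156390544: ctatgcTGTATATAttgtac
2900097C17Rik, chr2:156390516-156390535: atatatTGTACATActggac
2900097C17Rik, chr2:156389441-156389460: agaaagTGTACATAacggat

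Of 3214 genes tested whose longest transcript is at least as long, 2 had 11 or more copies in their first 4915 bases (0.0622%, 2900097C17Rik included), while 33.5% had at least 1. Among the members, 39 held at least 1 copy and Xist came next with 6. 1700020I14Rik (chr2:119594297-119607502, plus strand, listed in RefSeq as Oip5os1 and known as Cyrano) is a lincRNA conserved across vertebrates that carries a site for the microRNA miR-7 with unusually long pairing. The site is printed below with the paired bases in capitals, 13 against the 3′ part of miR-7a-5p and 7 against its seed, and the microRNA follows with its seed (bases 2 to 8) in capitals.
1700020I14Rik, chr2:119602136-119602161: aACAACAAAATCACcaatGTCTTCCa
mmu-miR-7a-5p: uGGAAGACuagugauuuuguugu

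The 7-base seed match alone occurred in 29.1% of the longest transcripts of 12396 genes tested, and a match with 13 unbroken 3′ bases in 1 of them, 1700020I14Rik itself. Xist, the RNA that coats the inactive X chromosome, opens with the A repeat, the stretch that recruits the silencing protein SPEN. Its core CATCGGGG, in capitals, had 3 exact matches near the 5′ end, on the transcribed strand, and the core occurred in 2.93% of the transcripts tested and 3 or more times in 2 of them, Xist included.
Xist, chrX:103482876-103482904: ttcttgccCATCGGGGccacggatacctg
Xist, chrX:103482708-103482736: ccttagccCATCGGGGccatggatacctg
Xist, chrX:103482544-103482572: cttttgccCATCGGGGctgtggatacctg

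Malat1, an abundant RNA of nuclear speckles, ends not in a poly(A) tail but in an A-rich stretch encoded in the genome, behind which a small tRNA-like RNA is cut off. The longest run of A in its annotated transcript, 12 bases in capitals, lies at that end, 298 bases before the end of the annotated model, and the lower-case bases after it run into the tRNA-like part.
Malat1, chr19:5795972-5796001: ttAAAAAAAAAAAAgcaaaagacgctggtg

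None of the 100 members passed the edgeR test at a false discovery rate of 0.05 in either direction. With Runx1, 0 members were called higher, where 0.306% of all genes tested were, and 0 were called lower, where 0.339% were. At an unadjusted p under 0.05, 3 members were higher (6.88% of all genes) and 13 lower (7.35% of all genes). DESeq2, a second count model, called 0 members higher (1.98% of all genes) and 4 lower (2.77% of all genes). It gave no adjusted p to members below rank 34 by mean level, so those could not be called. Other genes of low level got none either, and they are counted in these shares. limma-voom called 0 higher (0.823% of all genes) and 3 lower (0.968% of all genes). The 4 lower in DESeq2 were 2900097C17Rik, D930016D06Rik, Gm37494 and AU020206, and limma-voom called the last 3 of these.

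As a group, the members leaned to lower recovery with Runx1 than the typical gene. Their median log2 fold change (Runx1 over IgG) was -0.36, with quartiles at -0.78 and 0.18, beside a median of 0.03 over all genes tested and -0.01 over the 9716 of them that also had 100 or more counts. A fold change below 1 was fitted for 70 of 100 members, against 48.5% of all genes. One above 1 was fitted for 30 members and for 49.5% of the 9716 genes with 100 or more counts. Both Runx1 libraries lay below both IgG libraries for 35 members (22.2% of all genes), and above them for 14 (23.1% of all genes). Of the 9716 genes with 100 or more counts, 2397 lay below in this way and 2200 above. At 100 CPM or more, 9 of 17 members and 946 of 2383 genes lay below, and 2 members and 526 genes above. Other RNA kinds, taken without that sum, differed. Processed transcripts (101) leaned the same way, with a median log2 fold change of -0.23, 39.6% above 0, 27 below and 14 above. Antisense RNAs (245) had a median of 0.014, 51.8% above 0, 46 below and 51 above. The lean was present at each level of abundance: the median was -0.42 over the 17 members at 100 CPM or more (-0.15 over all genes there), -0.32 over the 21 at 30 to 100 CPM (0.03 over all genes) and -0.35 over the 62 under 30 CPM (0.12 over all genes, and 0.076 over the 3620 of them that also reached 100 counts). In the lowest class the sum of 100 counts bears on which genes enter. Most members there, Gm16907 among them, reached it from the IgG counts alone, and few from the Runx1 counts alone. The part of this rule in the median of that class was not tested. The members' fold changes were not tested as a set, so these medians and counts are descriptions. The size of the median depended on single libraries: without IgG replicate 1 it was -0.19 (all genes 0.089), without IgG replicate 2 it was -0.37 (all genes 0.069), without Runx1 replicate 1 it was -0.50 (all genes -0.088) and without Runx1 replicate 2 it was -0.31 (all genes -0.095). The distance to all genes was thus smallest without Runx1 replicate 2. In a bulk pull-down, recovery from fewer cells and recovery of less RNA per cell cannot be told apart.

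**Figure D1:**
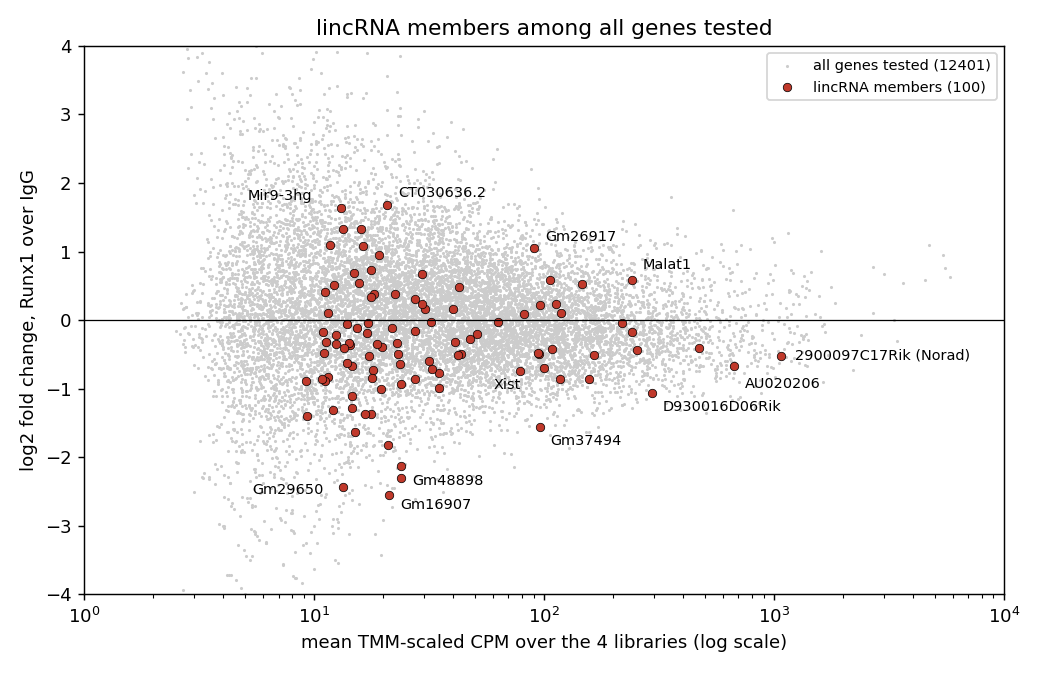
Log2 fold change, Runx1 over IgG, against the mean TMM-scaled CPM over the 4 libraries (log axis), for all 12401 genes tested in grey (71 lie outside the axes) and the 100 members in red. Members spread from -2.55 to 1.69 with 70 of 100 below 0, and the 4 most abundant all lie below 0.

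**Figure D2:**
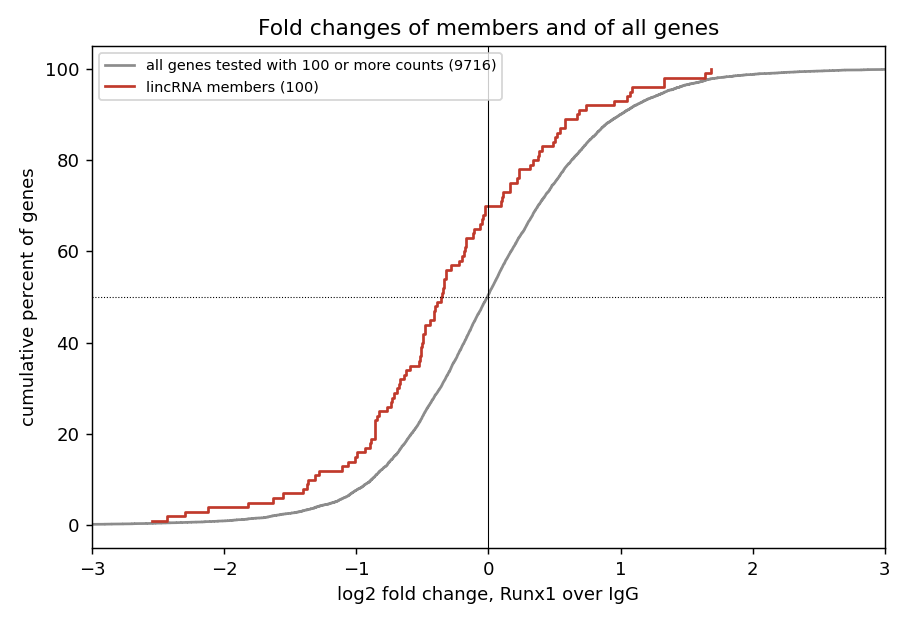
Cumulative percent of genes at or below each log2 fold change, for the 100 members in red and for the 9716 genes tested with 100 or more counts in grey. The red curve lies to the left over most of its range and crosses the dotted line of 50 percent at -0.36, the grey curve at -0.01.

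Members took 0.616% and 0.599% of the gene counts in the Runx1 libraries and 0.741% and 0.780% in the IgG libraries. The groups did not overlap, and the difference of the means was -0.15 percentage points (exact permutation test over libraries, two-sided, p = 0.333, the smallest that 2 against 2 libraries can give). Leaving out 2900097C17Rik, the most abundant member, the shares were 0.526% and 0.511% against 0.625% and 0.647%. The 10 most abundant members held 55.6% of the members' counts and took 0.316% and 0.327% of the Runx1 libraries against 0.412% and 0.455% of the IgG libraries. All other lincRNAs, apart from those left out by name, took 0.123% and 0.126% with Runx1 and 0.127% and 0.126% with IgG. The difference in gap between these sets was not tested.

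**Figure D3:**
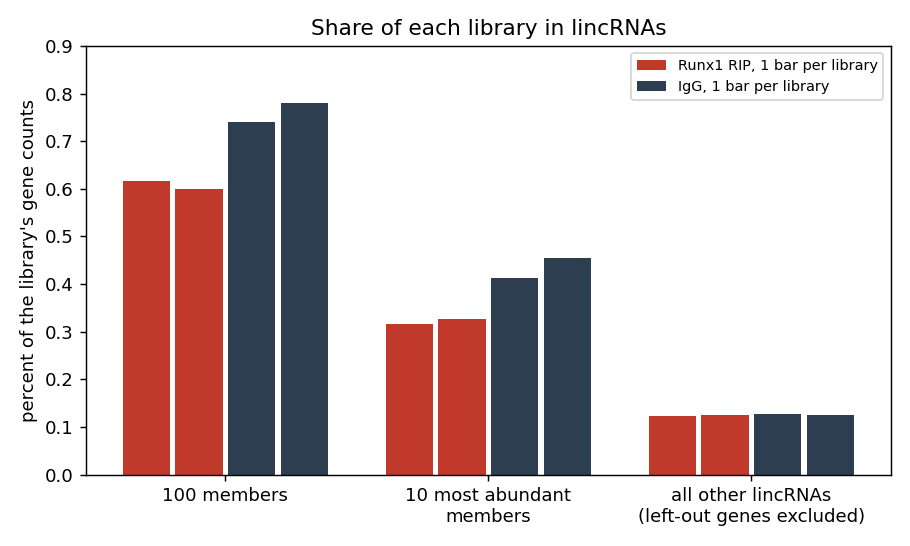
Percent of each library's gene counts in the 100 members, in the 10 most abundant of them and in all other lincRNAs, 1 bar per library. The 2 IgG bars stand above the 2 Runx1 bars in the first and second sets (0.741% and 0.780% against 0.616% and 0.599% in the first), and the 4 bars of the third lie between 0.123% and 0.127%.

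The 10 most abundant members ranged from 2900097C17Rik down to 1700020I14Rik, and 9 of the 10 had a fold change below 1. 2900097C17Rik, the Norad RNA with the PUMILIO elements printed above, was at 880.5 and 878 CPM with Runx1 and at 1166 and 1353 CPM with IgG. Both Runx1 libraries were lower, and they agreed more closely with each other than the IgG libraries did (879 ± 1.83 against 1260 ± 133 CPM, mean and SD, n = 2 each). The log2 fold change was -0.52 ± 0.12 (SE), with an edgeR adjusted p of 0.110, a DESeq2 adjusted p of 0.00300 and a limma-voom adjusted p of 0.0558. AU020206 (chr7:75769038-75782099, minus strand), a lncRNA by RefSeq with no role that can be given here, was at 478 and 557 CPM with Runx1 and at 835 and 817 CPM with IgG. The groups were well apart, and the log2 fold change was -0.67 ± 0.14 (edgeR adjusted p = 0.0843, DESeq2 5.87e-04, limma-voom 0.0247).

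D930016D06Rik (chr5:104525735-104554207, plus strand) had the smallest p of all members. Its level was 197 and 186 CPM with Runx1 and 368 and 430.4 CPM with IgG, so that each Runx1 library held about the same and each IgG library far more. The log2 fold change was -1.06 ± 0.19 (edgeR adjusted p = 0.0525, DESeq2 9.52e-05, limma-voom 0.0298), a 2.09-fold lower level. RefSeq lists the gene as Thoc2l with a protein-coding biotype, so its lincRNA label differs between annotations. Gm37494 (chr7:39544402-39580589, plus strand), outside the first 10 by level, was at 45.8 and 51.2 CPM with Runx1 and at 146 and 139 CPM with IgG. Its groups were the farthest apart of the 4, and the log2 fold change was -1.56 ± 0.31 (adjusted p of 0.0709 in edgeR, DESeq2 8.58e-04, limma-voom 0.0481). RefSeq lists it as the protein-coding gene Gm33989, and its longest reading frame spans 918 codons, the longest of any member.

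These 4 had a fold change below 1 in each fit that left out a library. Such a fit has 1 library in an arm, which is assumed to vary like the other group, so its calls add no support from replicates. Without Runx1 replicate 1 or Runx1 replicate 2, edgeR called all 4 lower, without IgG replicate 1 it called 2900097C17Rik and D930016D06Rik, and without IgG replicate 2 it called none of them. With transcript length and GC content fitted as offsets, the log2 fold changes were -0.31 for 2900097C17Rik, -0.69 for AU020206, -0.70 for D930016D06Rik and -0.83 for Gm37494, and the edgeR adjusted p-values were 0.365, 0.0990, 0.200 and 0.379. The size for AU020206 was thus the least altered by that correction.

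Among the other abundant members, 4 stand in no role list. AC132253.9 was at 436 and 375 CPM with Runx1 and at 488 and 587 CPM with IgG, apart but not past the test (log2 fold change -0.41 ± 0.17, adjusted p = 0.327 in edgeR). It has a reading frame of 587 codons and near-identical stretches in 7 other genes, so its counts are uncertain. Gm26772 was at 213 and 215 CPM with Runx1 and at 288 and 294 CPM with IgG, with close replicates on both sides and a log2 fold change of -0.44 ± 0.19 (adjusted p = 0.335). Gm42047, near-identical in stretches to 8 other genes, was at 211 and 245 CPM against 257 and 256 CPM, barely separate (-0.17 ± 0.20, adjusted p = 0.783). Gm49797, whose exons overlap those of Scaf8 on the same strand, was at 241 and 189 CPM against 209 and 234 CPM and overlapped fully (-0.04 ± 0.22, adjusted p = 0.971).

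**Figure D4:**
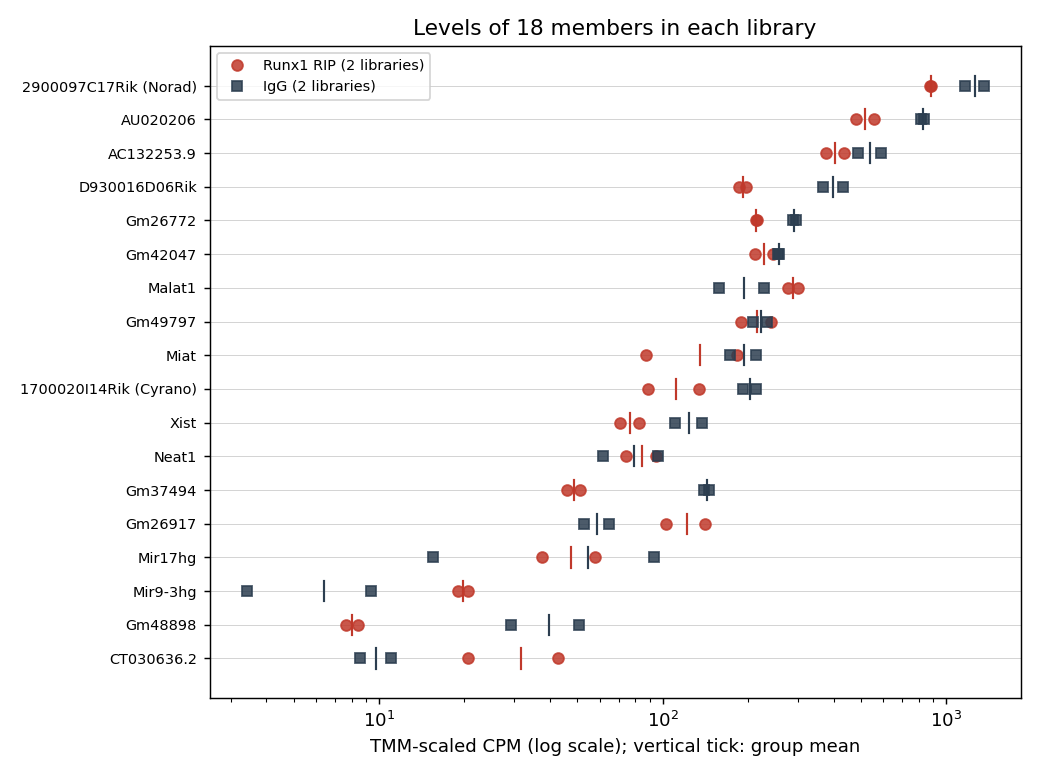
TMM-scaled CPM (log axis) of 18 members in each library, red circles for Runx1 and dark squares for IgG, with a vertical tick at each group's mean; the 10 most abundant members are at the top. The pairs of 2900097C17Rik, AU020206, D930016D06Rik and Gm37494 are separated with IgG higher, those of Malat1 and Gm26917 with Runx1 higher, and those of Neat1 and Mir17hg overlap.

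Of the RNAs listed with nuclear bodies, 6 were members, and by edgeR 0 rose, 0 fell and 6 did not pass. The list was drawn up by general knowledge and holds 2900097C17Rik, which is known mainly as cytoplasmic. It also holds Rmst and Pvt1, for which no nuclear body is given here. Malat1 was at 276 and 301 CPM with Runx1 and at 158 and 228 CPM with IgG. It was the only one of the 10 most abundant members above 1-fold, with both Runx1 libraries above both IgG libraries. Its log2 fold change was 0.58 ± 0.23 (edgeR adjusted p = 0.309), 1.04 with the length and GC offsets and -0.66 under the spike-in scaling. Without IgG replicate 1 the value was 0.33, and without IgG replicate 2 it was 0.85.

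Neat1, the RNA scaffold of paraspeckles, was at 74.0 and 94.5 CPM with Runx1 and at 61.7 and 96.6 CPM with IgG. The groups overlapped, and the log2 fold change was 0.09 ± 0.37 (adjusted p = 0.950). Neat1 and Malat1 lie close together on chromosome 19, at 5824708 to 5845478 and 5795690 to 5802672. Miat, an RNA found in dot-like domains of the nucleus of neural cells, was at 87.5 and 183 CPM with Runx1 and at 173 and 213 CPM with IgG. One Runx1 library fell within the IgG range, and the log2 fold change was -0.51 ± 0.35 (adjusted p = 0.574). Rmst, a brain RNA reported to bind SOX2, was at 28.8 and 8.45 CPM against 30.4 and 27.3 CPM (-0.64 ± 0.71, adjusted p = 0.764), and Pvt1, the neighbour of Myc, was at 4.70 and 15.3 CPM against 18.1 and 6.93 CPM (-0.32 ± 0.93, adjusted p = 0.927). The Runx1 replicates of both genes lay farther apart than the means of the antibodies.

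The X inactivation RNAs gave 3 members, all with a fold change below 1, and by edgeR 0 rose, 0 fell and 3 did not pass. Xist was at 70.4 and 82.4 CPM with Runx1 and at 110.2 and 138 CPM with IgG. Both Runx1 libraries were lower than both IgG libraries, the log2 fold change was -0.70 ± 0.31 (adjusted p = 0.358), and with the length and GC offsets it was -0.06. Ftx, a non-coding gene upstream of Xist, was at 19.96 and 19.02 CPM with Runx1 and at 43.3 and 27.3 CPM with IgG (-0.86 ± 0.57, adjusted p = 0.566). Jpx, an activator of Xist, was at 21.1 and 30.6 CPM against 22.04 and 36.3 CPM, with overlapping groups (-0.17 ± 0.58, adjusted p = 0.946). Exons of all 3 overlap those of other genes, Xist among them those of Tsix on the opposite strand, and the strand setting of the counting is not given in the sources used here.

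**Figure D5:**
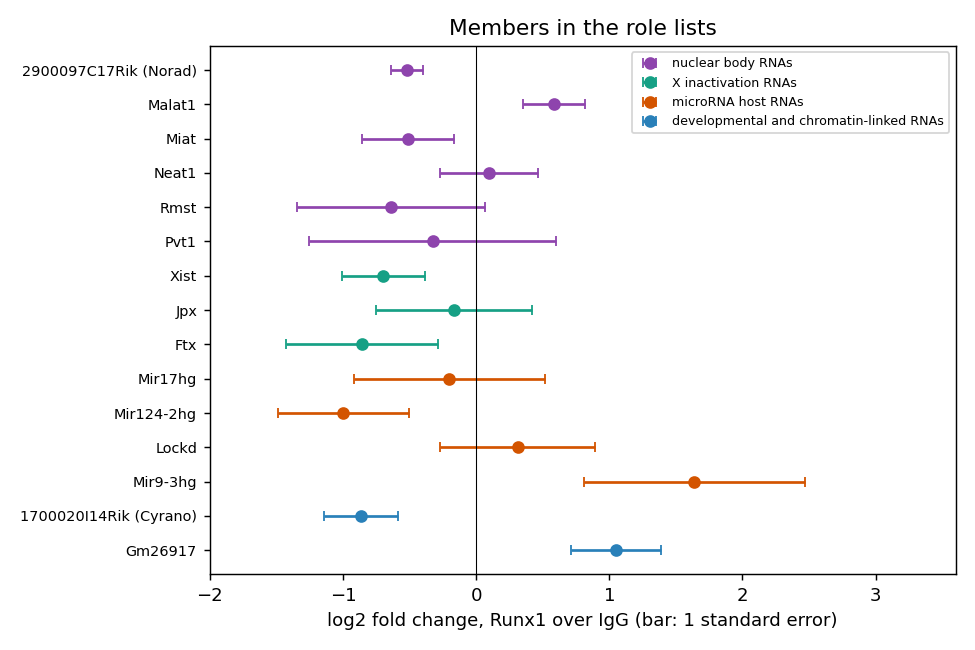
Log2 fold change, Runx1 over IgG, of the 15 members in the role lists, with bars of 1 standard error and colours for the lists. None passed the edgeR test; the values run from -0.997 for Mir124-2hg to 1.64 for Mir9-3hg, and the bars of the less abundant members are the widest.

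MicroRNA host genes are transcribed as long RNAs from which hairpins are cut, and 8 members had an annotated microRNA gene within them. The mature microRNAs of the Mir17hg cluster (chr14:115042879-115046727, plus strand) and of Mir9-3hg are printed because these are the hosts best known in blood and neural development; seeds are in capitals and the sequences are those of RefSeq on GRCm38.p6.
mmu-miR-17-5p: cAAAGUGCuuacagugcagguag
mmu-miR-20a-5p: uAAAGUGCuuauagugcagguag
mmu-miR-18a-5p: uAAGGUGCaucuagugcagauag
mmu-miR-19a-3p: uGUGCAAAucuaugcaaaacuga
mmu-miR-19b-3p: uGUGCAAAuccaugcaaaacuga
mmu-miR-92a-3p: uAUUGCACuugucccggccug
mmu-miR-9-5p: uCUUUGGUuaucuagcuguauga

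miR-17 and miR-20a share a seed, as do miR-19a and miR-19b, while miR-18a, miR-92a and miR-9 each have their own. The rows of the microRNA genes inside members held 1 count in all, so the values below are those of the host RNA. Mir17hg was at 37.6 and 57.6 CPM with Runx1 and at 93.1 and 15.5 CPM with IgG. The IgG libraries enclosed the Runx1 ones, and the log2 fold change of -0.20 ± 0.72 (adjusted p = 0.947) became 1.61 without IgG replicate 1 and -0.98 without IgG replicate 2. Mir9-3hg was at 20.5 and 19.02 CPM with Runx1 and at 3.41 and 9.37 CPM with IgG, higher in both Runx1 libraries (1.64 ± 0.83, adjusted p = 0.422). Mir124-2hg, the host of a neural microRNA gene, went the other way, at 23.5 and 23.2 CPM with Runx1 and 42.5 and 50.9 CPM with IgG (-0.997 ± 0.49, adjusted p = 0.406). Lockd, an RNA made next to Cdkn1b that was listed with the hosts but holds no annotated microRNA, was at 31.1 and 30.1 CPM against 32.0 and 17.1 CPM (0.31 ± 0.58, adjusted p = 0.880). In this list of 4 members, by edgeR 0 rose, 0 fell and 4 did not pass. Over the 8 members with a microRNA gene inside, 1 had a fold change above 1 and the median was -0.49. No member held an annotated snoRNA gene.

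Of the developmental and chromatin-linked list, 2 were members, and by edgeR 0 rose, 0 fell and 2 did not pass. 1700020I14Rik, the Cyrano RNA with the miR-7 site printed above, was at 88.6 and 134 CPM with Runx1 and at 213 and 192 CPM with IgG. The groups did not overlap, and the log2 fold change was -0.86 ± 0.28 (edgeR adjusted p = 0.214, DESeq2 0.0524). It was -0.25 with the length and GC offsets, and without Runx1 replicate 2, with 1 Runx1 library left, edgeR called it lower (-1.21, adjusted p = 0.0331). Gm26917, which stood on that list without a described role, was at 103 and 141 CPM with Runx1 and at 64.5 and 53.0 CPM with IgG, above in both libraries. Its log2 fold change of 1.05 ± 0.34 had the smallest p of the members with a fold change above 1 (edgeR adjusted p = 0.212, DESeq2 0.0619). Gm26917 (chr17:39843013-39846341, plus strand, 69.1% GC, a single exon) ends 11 bases before CT010467.1, annotated as ribosomal RNA. That ribosomal gene was at 100.4 and 100.9 CPM with Runx1 and at 19.2 and 20.4 CPM with IgG (2.35 ± 0.39, edgeR adjusted p = 0.0470). Gm26917 itself has a reading frame of 353 codons, and whether its reads come from the ribosomal unit was not tested.

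The smallest fold changes among members at a mean of 10 CPM or more whose groups did not overlap are given here by library. Apart from Gm37494, given above, they belonged to low-count genes without a described role. For each of these genes the IgG counts alone reached the sum that chose the members, which weighs the deeper IgG libraries more. The part of that rule in their low fold changes was not tested. Gm16907 was at 0.587 and 11.6 CPM with Runx1, the first of these from 1 count, and at 36.5 and 36.3 CPM with IgG (-2.55 ± 1.00, edgeR adjusted p = 0.297). Gm29650, on chromosome Y, was at 2.35 and 5.81 CPM against 12.9 and 32.2 CPM (-2.44 ± 0.89, adjusted p = 0.272). Gm48898 was at 7.63 and 8.45 CPM against 29.1 and 50.5 CPM (-2.30 ± 0.65, adjusted p = 0.174). Separate libraries were part of the rule that picked these 3, and none passed the edgeR test.

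Gm43597 was at 15.3 and 2.64 CPM against 35.4 and 42.4 CPM (-2.12 ± 0.82, edgeR adjusted p = 0.290). 5330434G04Rik, on the X chromosome with the gene of miR-325 inside it, was at 11.2 and 7.39 CPM against 30.2 and 35.5 CPM (-1.82 ± 0.64, adjusted p = 0.254). Gm26623 was at 9.98 and 4.75 CPM against 16.8 and 28.9 CPM (-1.63 ± 0.77, adjusted p = 0.385). Gm48653 was at 11.2 and 7.39 CPM against 15.2 and 33.0 CPM (-1.37 ± 0.74, adjusted p = 0.458), and with Gm37494 it completes the 8 smallest. The values of Gm16907 and Gm43597 rested on single Runx1 libraries: without Runx1 replicate 2, which leaves the library with 1 count, Gm16907 was at -5.86, and without Runx1 replicate 1 Gm43597 was at -3.89, with no spread within Runx1 to set these against.

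At the other end, Gm26917 and Mir9-3hg were joined by 6 members. CT030636.2 (chr17:12795746-12800795, minus strand) was at 42.8 and 20.6 CPM with Runx1 and at 11.02 and 8.56 CPM with IgG, the largest fold change of all members (1.69 ± 0.68, edgeR adjusted p = 0.314). CT030636.1, which lies beside it, was at 18.2 and 18.5 CPM against 14.96 and 7.74 CPM (0.68 ± 0.72, adjusted p = 0.750). Both are short spliced models, of 353 and 254 bases, whose nearest coding start is that of Igf2r, an imprinted gene.

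C530050E15Rik was at 25.2 and 13.2 CPM against 9.45 and 5.71 CPM (1.33 ± 0.79, edgeR adjusted p = 0.509). Gm33195 was at 21.7 and 22.2 CPM against 4.72 and 16.3 CPM (1.07 ± 0.79, adjusted p = 0.618). 4632415L05Rik was at 23.5 and 20.6 CPM against 8.66 and 17.9 CPM (0.74 ± 0.69, adjusted p = 0.713), and Gm32849 at 36.4 and 35.9 CPM against 12.3 and 33.4 CPM (0.67 ± 0.63, adjusted p = 0.712). Separate libraries were part of the rule that picked these 4 too, and none of them had an unadjusted edgeR p under 0.05.

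The members varied widely among themselves in level and form. Mean levels ran from 9.21 to 1069 CPM, with a median of 22.1 CPM. Per kilobase of the longest transcript the order changed: AU020206 (223 CPM per kb), 2900097C17Rik (218) and AC132253.9 (175) led, 4930516B21Rik (98.1) came next, and the long RNAs Malat1 (34.4), Xist (5.58) and Neat1 (3.93) ranked 17, 83 and 89 of 100. The longest transcripts had a median length of 2876 bases against 3729 for the protein-coding genes tested, a median GC content of 44.9% against 49.4%, and a median of 2 exons against 9. A single exon was annotated for 24 members.

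Across the 100 members, log2 fold change had a Pearson correlation of 0.30 with GC content (Spearman 0.29), -0.04 with log2 length and 0.02 with log2 mean CPM. Over 12396 genes tested the value for GC content was 0.21, and over 12399 it was -0.18 for log2 length. These correlations are across genes that share the same 4 libraries, and genes are not independent replicates. With the length and GC offsets, the median log2 fold change was -0.33 over the 100 members and 0.048 over all genes. The DNA motif of RUNX proteins, searched as TGTGGT or its complement ACCACA, occurred in the longest transcripts of 82.0% of members and 85.7% of all genes tested, at 0.920 per kb in members and 0.767 per kb in all genes tested, and its number per kb had a correlation of 0.01 with the members' log2 fold change. Over all 100 members, the median log2 fold change was -0.48 over the 24 with a single exon and -0.33 over the 76 with more, -0.45 over the 66 outside coding genes, -0.28 over the 11 within or across a coding gene on its strand and -0.11 over the 23 on its opposite strand only.

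The lincRNA label itself was checked against RefSeq, in which 51 members were found by symbol or synonym and place. Of these, 43 were listed as lncRNA, 7 as protein-coding, D930016D06Rik and Gm37494 among them, and 1 otherwise. Reading frames of 300 codons or more were present in 4 members (Gm37494, AC132253.9, Gm42047 with 393 codons and Gm26917). Exons of 38 members overlapped exons of another gene, and 22 had stretches of at least 200 bases at 95% identity in other genes, led by 2410018L13Rik with 21 such genes. Counts of these members are uncertain, since reads could be divided between copies. Over the 62 members with no exon overlap the median log2 fold change was -0.35.

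The nearest protein-coding gene was tested for 72 members, and 0 of these neighbours were called. Their median log2 fold change was -0.09, beside -0.34 for the 72 members themselves. Both fold changes were below 1 in 26 pairs and both above 1 in 11, while they differed in side in 35 pairs (21 with the member below 1 and 14 with the neighbour below 1). The correlation between member and neighbour was 0.11 (Pearson), with all points from the same 4 libraries.

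Replicates of the members agreed about as well as those of other genes. In both pairs the libraries were within 2-fold of each other for 59 members (59.0%, against 57.7% of all genes), and at 100 CPM or more for 16 of 17. The common spread fitted by edgeR corresponded to a biological coefficient of variation of 46.1% over all genes. Just inside the threshold stood 9030622O22Rik (103 counts, log2 fold change -1.40), Gm26884 (104 counts, 0.41) and Gm28875 (105 counts, -0.83), and just outside it 5430401H09Rik (98 counts, 0.51), Gm26809 (97 counts, -1.36) and Gm12116 (97 counts, -1.15).

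The genes left out by name differed from one another. H19, an imprinted fetal RNA, was at 494 and 652 CPM with Runx1 and at 243 and 246 CPM with IgG and rose in edgeR (1.23 ± 0.19, adjusted p = 0.0353), a call that ended with the length and GC offsets (0.87, adjusted p = 0.0829). Meg3, an imprinted RNA of chromosome 12, was more abundant than any member, at 1144 and 1327 CPM against 1403 and 1498 CPM, and did not pass (-0.23 ± 0.12, adjusted p = 0.415). The other 3 are not typed as lincRNA in the annotation used: Kcnq1ot1 at 3270.2 to 3352 CPM in every library (0.00 ± 0.07), Gas5 (0.17 ± 0.37) and Snhg1 (-0.43 ± 0.59), none of them called. Among the 89 lincRNAs tested that are not members, H19 was the single one called, and the median log2 fold change was -0.09.

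Messenger RNAs for the proteins that work with such RNAs were read out of the same fit. Of all genes tested, edgeR called 0.306% higher and 0.339% lower, DESeq2 1.98% and 2.77%, and limma-voom 0.823% and 0.968%. Of 29 paraspeckle and speckle protein genes tested, 0 rose, 0 fell and 29 did not pass in edgeR, with a median log2 fold change of -0.21 and 7 above 0. DESeq2 called 1 of them higher and 4 lower, and limma-voom 1 higher and 3 lower. The smallest p in that list belonged to Srsf1, a splicing factor of speckles (437 ± 66.5 CPM with Runx1, 737 ± 51.8 with IgG, SD, n = 2 each; -0.75 ± 0.16, adjusted p = 0.0868), and Ppig, a speckle-associated cyclophilin (416 ± 95.5 against 201 ± 34.4 CPM; 1.05 ± 0.23, adjusted p = 0.0890). Of 30 genes for Xist RNA partners and regulators, 0 rose, 1 fell and 29 did not pass in edgeR, with a median of -0.20. DESeq2 called 0 of them higher and 4 lower, and limma-voom 0 higher and 2 lower. The one that fell in edgeR was Celf1, an RNA-binding protein reported at the E repeat of Xist. It was at 1072 ± 5.46 CPM with Runx1 and 1711 ± 58.5 CPM with IgG (-0.67 ± 0.10, edgeR adjusted p = 0.0353). It was not called with the length and GC offsets (-0.33, adjusted p = 0.271). Rlim, which encodes an X-linked ubiquitin ligase that activates Xist, followed at 744 ± 42.5 against 1201 ± 141 CPM (-0.69 ± 0.13, adjusted p = 0.0638).

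Nuclear exosome and RNA decay factors, which degrade many non-coding RNAs, had 29 genes tested, of which 0 rose, 0 fell and 29 did not pass in edgeR, with a median of 0.22. DESeq2 and limma-voom called 0 of them in either direction. Ints11, the nuclease of the Integrator complex, was at 44.8 ± 23.8 CPM against 15.1 ± 2.83 CPM (1.57 ± 0.61, adjusted p = 0.295), and Srrt, which links capped RNA to the exosome, at 286 ± 19.98 against 205 ± 26.8 CPM (0.48 ± 0.20, adjusted p = 0.333). Of 22 nonsense-mediated decay factors, 0 rose, 1 fell and 21 did not pass in edgeR, with a median of -0.0015. DESeq2 and limma-voom also called 0 of them higher and 1 lower. Smg1, the kinase that phosphorylates UPF1, fell from 660 ± 107 CPM with IgG to 309 ± 51.4 CPM with Runx1 (-1.09 ± 0.19, edgeR adjusted p = 0.0490). It was not called with library totals alone (adjusted p = 0.0552) or with the length and GC offsets (-0.61, adjusted p = 0.264). Upf3b, an exon junction factor of that pathway, was at 370 ± 51.5 against 247 ± 9.67 CPM (0.58 ± 0.19, adjusted p = 0.212).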

How the data were processed

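The authors deposited 1 table of raw counts per Ensembl gene, whole numbers without normalization, each library having its own column. Salmon 1.1.0, STAR 2.7.3a, Trimmomatic 0.36 and mm10 are named in the submitters' processing notes, without roles. Which annotation and strand setting the counting used is not given in the sources used here.

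Gene types, transcripts and coordinates came from GENCODE M21, where 55480 of 55573 gene rows were found. The 92 spike-in rows stayed out of library sizes. Genes were tested with edgeR 4.0.16 (quasi-likelihood, TMM, filterByExpr, two-sided, no block, Benjamini-Hochberg over 12401 genes, false discovery rate 0.05) and checked on simulated data; DESeq2 1.42.0 and limma 3.58.1 (voom) were alternatives. Near-identical stretches came from blastn 2.17.0.

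Members and lists were chosen with earlier results of these data known. Named were the 10 most abundant members, the 8 largest and 8 smallest fold changes among members of at least 10 CPM whose groups do not overlap, members in role lists, called genes or the 2 smallest p of each protein list, the left-out genes and those at the threshold. 4930516B21Rik and 2410018L13Rik were named after their values were seen, as were CT010467.1 and the marker genes Pecam1 and Kdr.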

Additional observations from a re-analysis of the deposited data

Results flagged for a closer look

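The spike-in rows, which no comparison above uses apart from the alternative scaling, took a mean of 0.0367% of all counts in the Runx1 libraries and 0.0152% in the IgG libraries. They are given here because each Runx1 library (0.0356% and 0.0378%) lay above both IgG libraries (0.0129% and 0.0175%). Under scaling to these rows the median log2 fold change of the members was -1.65 and that of all genes -1.25, and the scaling shifts all genes by about the same amount.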

How the results depend on the processing

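The median log2 fold change of the members stayed below 0 under all 18 alternatives tried. It was -0.28 with at least 10 counts in all libraries (81 members tested), -0.43 with a sum of at least 200 counts (56 members), -1.65 under spike-in scaling, and -0.50 to -0.19 with single libraries left out. Members called higher were 0 throughout. Members called lower, 0 in edgeR, were 4 with at least 10 counts in all libraries, 4 with no low-count filter, 4 in DESeq2, 3 in limma-voom, 39 under spike-in scaling and 0 to 7 with single libraries left out. Those fits have 1 library in an arm, assumed to vary like the rest; genes called lower in all were 85 of 13457 without IgG replicate 1, 80 of 13489 without IgG replicate 2, 352 of 14207 without Runx1 replicate 1 and 220 of 14173 without Runx1 replicate 2, beside 2, 0, 7 and 6 members. Members with both Runx1 libraries below both IgG libraries, 35 here, were 79 under spike-in scaling, 23 of the 62 without exon overlap and 47 to 55 with a library left out, where fewer libraries make separation easier. Those above, 14 here, were 0 under spike-in scaling and 22 to 29 with a library left out. They were 24 of 155 tested with a sum of at least 50 counts and 5 of 56 with a sum of at least 200 counts. The changed member rules use the main fit, where the shares over all genes were 22.2% below and 23.1% above. Under spike-in scaling or with a library left out these shares were not counted, so those counts have no background and are not results about the members. The difference in the share of counts was -0.17 to -0.13 percentage points with a library left out. Counts of separated members have no value under the block, DESeq2, limma-voom or the length and GC offsets.

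Among the protein lists, 2 genes were called; the number was 8 with at least 10 counts in all libraries, 10 in DESeq2, 10 with no filter, 7 in limma-voom, 1 with library totals, 1 with length and GC offsets, 59 under spike-in scaling and 3 to 11 with a library left out. Among the 15 members in role lists 0 were called in edgeR. The number was 1 of 14 with at least 10 counts in all libraries, 1 in DESeq2, 1 with no filter and 6 under spike-in scaling. The replicate block called 0 members, 0 genes of the protein lists and 2 genes in all, against 80 without it. H19, Celf1 (edgeR adjusted p = 0.111) and Smg1 (0.0910) thus lost their calls. The labels do not say whether libraries with the same number belong together. Their deviations had a correlation of 0.00438 across genes. With 1 such deviation per antibody and gene, this cannot decide whether they shared a sort or a lysate. All genes called higher and lower were 38 and 42 of 12401 in edgeR. They were 125 and 160 of 9367 with at least 10 counts in all libraries and 224 and 325 of 22242 with no filter. Of the 12401 genes, they were 246 and 344 in DESeq2, 102 and 120 in limma-voom and 30 and 4 with length and GC offsets. They were 39 and 32 with library totals and 19 and 3914 under spike-in scaling.

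Among the named genes, fold changes that crossed 0 were those of small size, and under spike-in scaling 12 of those above 0. Mir9-3hg (0.46), CT030636.2 (0.40), C530050E15Rik (0.022) and Ints11 (0.34) stayed above 0 under spike-in scaling. Under that scaling the log2 values were -0.66 for Malat1, -0.085 for Gm33195, -0.26 for Gm26917, -0.46 for 4632415L05Rik, -0.66 for CT030636.1, -0.51 for Gm32849, -1.14 for Neat1, -1.03 for Lockd, -0.69 for Upf3b, -0.78 for Srrt, -0.19 for Ppig and -0.054 for H19. With length and GC offsets they were 0.16 for Gm49797, 0.076 for Mir17hg, 0.037 for Jpx and 0.13 for Meg3; Mir17hg was 0.063 in limma-voom and 0.24 with the replicate block. With a library left out, values ran from -0.26 to 0.11 for Gm49797, -0.21 to 0.44 for Neat1, -0.98 to 1.61 for Mir17hg, -0.080 to 0.82 for Lockd, -0.50 to 0.22 for Jpx and -1.43 to 0.52 for Pvt1. The cause was not tested. With 2 libraries a group, and 62 members under 30 CPM, a missed threshold does not show that a member was recovered equally.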
